A study of Mus musculus with 16 samples.

Results

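The genes described here are 150 transcripts that both mouse embryonic stem (ES) cell lines expressed and that stayed far lower in fibroblasts and in every iPS clone made with the first human artificial chromosome vector, iHAC1. They were chosen by measured values, from the arrays of the ES cells, the embryonic fibroblasts (MEFs) and the iHAC1-iPS clones. A level is log2 of an array's processed signal minus the 75th percentile of that array, so that 1 unit is a 2-fold difference and 0 is the brightness of the probe at the 75th percentile. Of 28095 gene names on the array, 16674 were well above background in both ES lines, and these were ranked by the lower ES level minus the highest level among MEFs and the 4 iHAC1-iPS clones. The 150 with the largest score were kept. The score ran from 10.23 for Rbmxl2 down to 2.996, with a median of 3.86. The last genes inside were Dnd1 (3.04), Rhox5 (2.999) and Galnt6 (2.996), and the first outside were Nkx6-3 (2.995), Bhlhe23 (2.987) and Stk31 (2.976). Low levels in MEFs and iHAC1-iPS cells against ES cells are therefore what the choice required, and are given without a test.

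The study asked how closely iPS cells made without vector integration resemble ES cells. Single arrays were run on C57BL/6 MEFs and on the retroviral iPS line 20D17, derived from C57BL/6 x DBA, and there were 2 ES lines, B6ES from C57BL/6 and TT2 from C57BL/6 x CBA F1 embryos. The 4 iHAC1-iPS clones carried an EGFP-marked chromosome with 2 copies each of Klf4, c-Myc, Sox2 and Oct4, every copy driven by the CAG promoter. The 4 iHAC2-iPS clones carried a chromosome that adds 2 further copies of Oct4 and a p53 shRNA driven by the H1 promoter. The 4 iHAC-free iPS lines were sorted as EGFP-negative cells that had lost the iHAC2 vector: F-B1 came from clone 2-B1, F-C5 from 2-C6, F-E4 from 2-E, and F-N7 from 2-N. Mimics of miR-294 and miR-295 were given during reprogramming with the vectors. All ES and iPS cells were grown with LIF on mitomycin-C treated MEF feeders, and each iPS line is 1 clone. The arrays of iHAC2-iPS and iHAC-free iPS cells were scanned in 1 session and all the others in another, so for these 8 lines a distance to ES cells and a difference between sessions cannot be told apart.

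Naive pluripotency, the state of mouse ES cells kept in LIF, rests on a circuit of transcription factors that includes Esrrb, Tfcp2l1 and Nr5a2. It is marked by genes such as Zfp42 (Rex1) and Dppa3 (Stella) that are very low or absent in fibroblasts. Germline genes, which act in germ cells and meiosis, are kept off in somatic cells by promoter DNA methylation and by repressive complexes, yet many are transcribed in mouse ES cells. Cells that stop part of the way through reprogramming typically have lost fibroblast genes and gained proliferation without switching on these late genes.

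Promoters show how unlike the members are. RefSeq (GRCm38.p6) windows from 250 bases before to 50 bases after the start were found for 96 of the members, 116 windows in all. A CpG content of at least 0.6 of that expected from the base composition was found in 24.1% of them. It was found in 35.4% of the windows of other ES genes at least 2.996, the lowest score kept, above MEFs. The share was 65.4% for all genes well above background in both ES lines and 35.8% for all promoters. The 250 bases upstream of Rbmxl2, the member of highest score, and of Khdc3, the member with the largest difference between iHAC2-iPS cells and the lines freed of the vector, differ widely in CpG and are shown with every CG in capitals. The first (chr7:107209195-107209444, plus strand) holds 23 CG pairs and the second (chr9:73102148-73102397, plus strand) holds 0.
Rbmxl2: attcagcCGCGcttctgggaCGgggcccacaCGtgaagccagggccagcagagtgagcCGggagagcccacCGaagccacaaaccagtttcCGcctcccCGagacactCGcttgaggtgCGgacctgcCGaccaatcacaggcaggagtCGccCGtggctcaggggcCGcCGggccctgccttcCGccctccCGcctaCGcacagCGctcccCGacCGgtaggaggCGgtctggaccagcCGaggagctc
Khdc3: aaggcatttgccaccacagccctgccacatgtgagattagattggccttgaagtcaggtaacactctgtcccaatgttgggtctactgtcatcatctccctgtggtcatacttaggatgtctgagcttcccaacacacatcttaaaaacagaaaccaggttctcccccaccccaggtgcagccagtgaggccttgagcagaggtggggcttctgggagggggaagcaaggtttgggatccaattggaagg

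The letters TCACGTG, searched on both strands, are an extended E-box of the type bound by MGA with its partner MAX, which sit with E2F6 in a repressive complex at germline promoters. This motif contains the plain E-box CACGTG. It was found in 10 of the 116 windows (8.62%), which belong to 9 members, against 5.45% of windows for the other ES genes low in MEFs, 5.70% for all ES genes and 3.77% for all promoters. Of the 9 members, 4 were on the germline list, as were 13 of the 96 members with a promoter entry. The plain E-box was in 12.9% of the members' windows and 7.15% of all promoters, ATTTGCAT in 2.59% and 1.74%, CCACACCC in 6.03% and 3.56%, TGACGTCA in 1.72% and 1.79%, and TCAAGGTCA in 0 of the 116 and 0.423%. These matches describe letters and not bound sites. Windows of 80 bases are shown for 5 members whose levels are given further on, on the strand of the gene with the match in capitals (CACGTGA is the same site read on the other strand): Rbmxl2 at chr7:107209195-107209274, Zfp459 at chr13:67421421-67421500, Dnmt3l at chr10:78049760-78049839, Cpsf4l at chr11:113709628-113709707 and Mael at chr1:166238915-166238994.
Rbmxl2: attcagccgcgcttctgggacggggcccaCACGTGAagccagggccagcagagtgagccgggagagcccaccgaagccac
Zfp459: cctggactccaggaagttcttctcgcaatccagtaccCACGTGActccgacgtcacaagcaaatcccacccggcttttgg
Dnmt3l: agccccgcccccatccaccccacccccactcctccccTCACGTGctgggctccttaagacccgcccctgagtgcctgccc
Cpsf4l: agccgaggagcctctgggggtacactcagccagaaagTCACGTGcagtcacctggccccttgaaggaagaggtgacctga
Mael: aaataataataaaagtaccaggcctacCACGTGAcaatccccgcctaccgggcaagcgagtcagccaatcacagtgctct

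The name "silent" did not hold for every member. In iHAC1-iPS cells 53 of the 150 were well above background on no array, 26 on 1, 20 on 2, 15 on 3 and 36 on all 4, while 56 were well above background in MEFs. Silence in the sense of no signal well above background in MEFs or in any iHAC1-iPS clone applied to 52 members. For the 53 the ES level exceeded the iHAC1-iPS level by at least 477-fold for Rhox6, 352-fold for Rbmxl2 and 265-fold for Khdc3, where the dim group was set at the lowest level well above background on each array. Rhox9, Cpsf4l, Dnmt3l, Dppa5a and Zfp987 were among the 36 that were measurable in all 4 iHAC1-iPS clones.

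**Figure D1:**
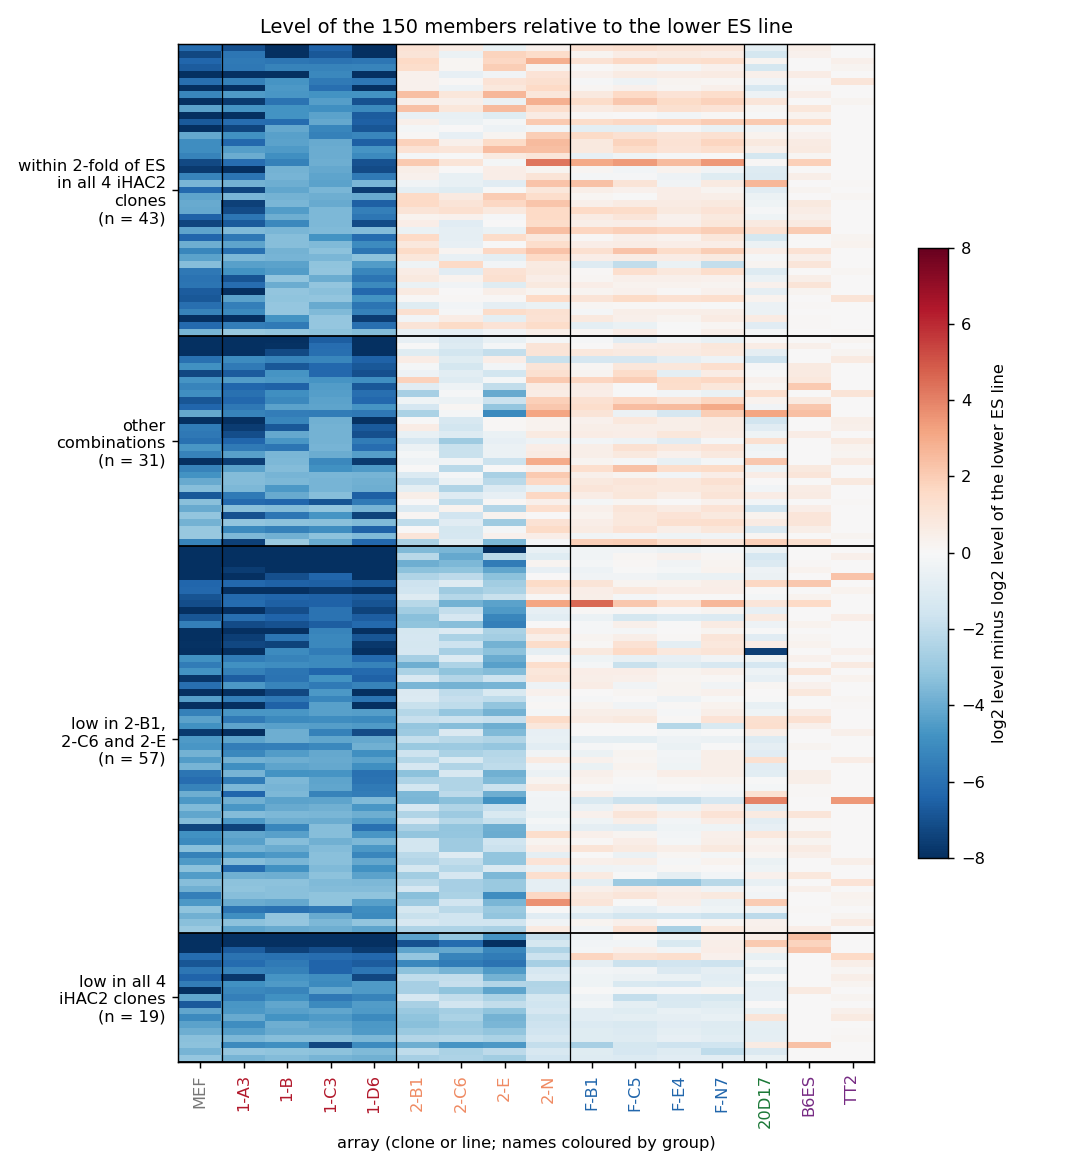
Level of the 150 members (rows) on the 16 arrays (columns), as log2 relative to each gene's lower ES level, in 4 blocks by their pattern in the iHAC2-iPS clones. MEF and iHAC1-iPS columns are low by choice of the members, the iHAC-free iPS columns are close to ES cells, and among the iHAC2-iPS columns 2-N stands above 2-B1, 2-C6 and 2-E in the block of 57 genes.

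On the 16 arrays the members lay near ES levels in iHAC-free iPS cells and in 20D17, and between the iHAC1-iPS and the ES levels in 3 of the 4 iHAC2-iPS clones. The median of the members relative to the lower ES line was between -5.76 and -4.25 in the iHAC1-iPS clones. In iHAC2-iPS cells it was -1.32 for 2-B1, -1.47 for 2-C6, -1.85 for 2-E and 0.51 for 2-N. In iHAC-free iPS cells it was 0.19 for F-B1, 0.29 for F-C5, 0.09 for F-E4 and 0.41 for F-N7, and in 20D17 it was -0.18. The clone 2-N was thus at the level of the iHAC-free lines and the other 3 iHAC2-iPS clones below all of them. For 493 other ES genes the same medians were -0.07, -0.23, -0.09 and 0.16 in 2-B1, 2-C6, 2-E and 2-N. These genes lay at least 2.996 above MEFs in both ES lines, without the requirement on iHAC1-iPS cells. They were less low in MEFs than the members, with a median of -3.96 against -5.40 relative to the lower ES line.

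**Figure D2:**
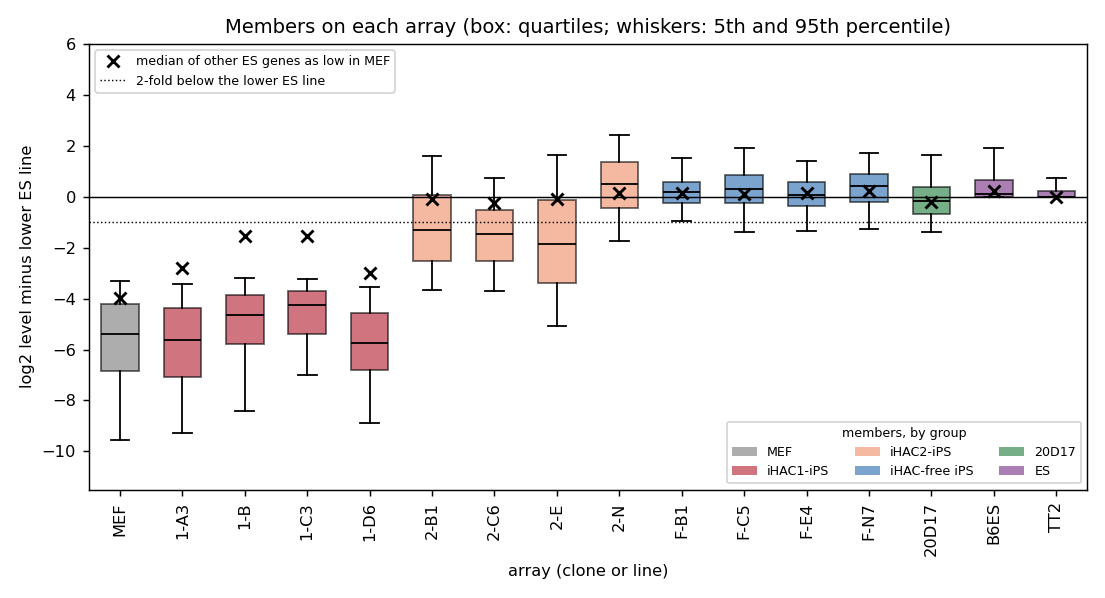
Boxes give the median and quartiles of the 150 members on each array (whiskers: 5th and 95th percentile), as log2 relative to the lower ES level. Crosses give the median of the 493 other ES genes at least 2.996 below the lower ES line in MEFs (labelled as low in MEF). The boxes of 2-B1, 2-C6 and 2-E (medians -1.32, -1.47 and -1.85) sit between those of iHAC1-iPS cells and of 2-N (0.51).

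The iHAC2-iPS clones were set against the iHAC-free lines, 4 clones against the 4 lines sorted from them, scanned in the same session. The score did not use these arrays, though each gene's probe was picked by its mean over all arrays. The spread behind the p-values was shared with the ES and iHAC1-iPS arrays that chose the members. The differences of means are therefore free of the score, but the p-values and the limma counts are not fully so. Here 20 of the 150 members were called lower in iHAC2-iPS cells by limma (adjusted p under 0.05 and at least 2-fold), and 1, Prom2, was called higher. Over all 31415 probes tested 0.544% were called lower and 0.216% higher, and of the 493 other ES genes 13 were called lower (2.64%) and 3 higher. Without the adjustment 72 members had a p under 0.05 and a lower mean (48%), and 6 a higher mean (4%), where 7.51% and 11.1% of all probes tested did. The median difference of the members was -1.32 (quartiles -1.92 and -0.52), and 125 of 150 had a lower mean in iHAC2-iPS cells. That median was -0.28 for the 493 other ES genes and 0.05 over all probes tested. Every iHAC2-iPS clone lay below every iHAC-free line for 36 members, against 4.46% of all probes, and above for 4, against 7.09%.

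**Figure D3:**
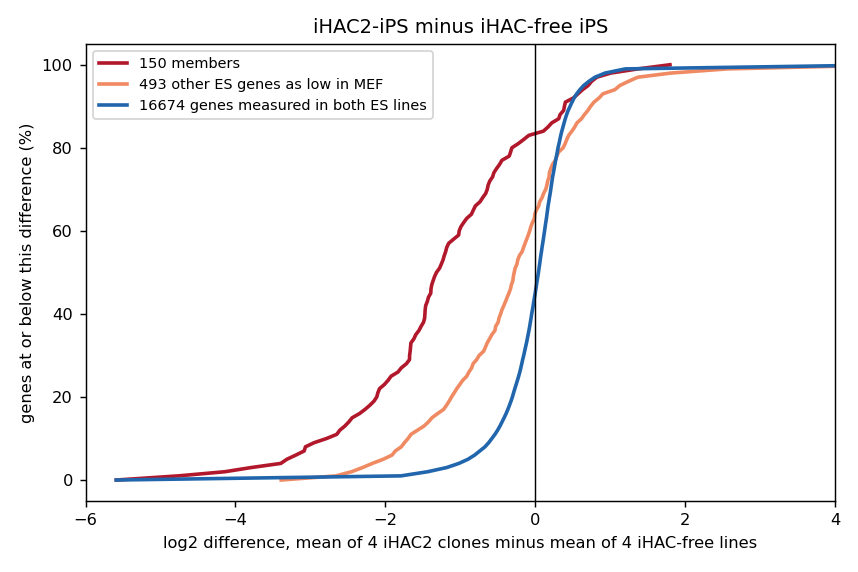
Cumulative share of genes (y axis, percent) by the difference of iHAC2-iPS minus iHAC-free iPS means (x axis, log2), for the members, the 493 other ES genes and all 16674 ES genes. The members' curve lies to the left, with a median of -1.32 against -0.28 for the 493 other genes and 0.04 for all ES genes.

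Clone 2-N set much of the spread inside the iHAC2-iPS group. It was the highest of the 4 clones for 126 of the 150 members, against 28.7% of ES genes, and 2-E was the lowest for 81, against 18.2%. Taken by clone of origin, the median difference was -1.40 for 2-B1 minus F-B1, -1.75 for 2-C6 minus F-C5, -1.72 for 2-E minus F-E4 and 0.10 for 2-N minus F-N7. Without 2-N, 70 members were called lower, all 20 of the first count among them, and 600 of the 31415 probes (1.91%). Leaving out any 1 of the other arrays gave fewer called members. Over all probes fewer were called lower than with all arrays (0.544%), except without 2-C6. There were 7 members without 2-B1 (0.357% of all probes), 13 without 2-C6 (0.595%) and 4 without 2-E (0.15%). Without any 1 of the iHAC-free lines 3 or 4 members were called lower (0.0891% to 0.131% of all probes). With the other groups left out of the fit, so that their arrays did not set the spread, 2 members were called lower. With slide as a block 13 were, and with normexp background correction 44. At an unadjusted p under 0.05 (limma), 70, 69 and 74 members were lower in these fits, in that order. The share over all probes is not given for them. Within the slide that held 2-C6, 2-E, F-C5 and F-E4 the median difference was -1.88, and within the slide of 2-B1, 2-N, F-B1 and F-N7 it was -0.70. All 20 called members were lower within both slides. This had to be so, since in all 20 every iHAC2-iPS clone was below every iHAC-free line, and it is no check on the slides.

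Measured against the lower ES line, 43 members were within 2-fold of it or above in all 4 iHAC2-iPS clones, where 82.7% of all ES genes were. A further 57 were more than 2-fold below in 2-B1, 2-C6 and 2-E and not in 2-N, a pattern defined after the values had been seen, which held for 1.19% of ES genes and for 41 of the 493 other ES genes (8.32%). Another 19 were more than 2-fold below in all 4 clones, against 1.19% of ES genes, and 31 showed other combinations. In iHAC-free iPS cells 128 members were within 2-fold or above in every line, against 93.4%, and 3 were more than 2-fold below in every line, against 0.48%. In 20D17, 131 were within 2-fold or above, against 98.3%, and 19 were below, against 1.7%. ES arrays chose the members, so these counts carry no test.

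Among the markers of pluripotency, Dppa3 protects maternal methylation in the zygote and marks naive cells and primordial germ cells. It stood at 3.62 and 4.01 in the ES lines, 2.29 in 20D17, and 1.38, -0.46, 1.46 and 2.62 in 2-B1, 2-C6, 2-E and 2-N. The iHAC-free lines were at 3.32, 3.78, 3.97 and 3.78. All iHAC2-iPS values were below all iHAC-free values, and the difference of -2.47 (SE 0.65) had an adjusted p of 0.0890. Without 2-N the difference was -2.92 (SE 0.64, adjusted p 0.0256), so that the call turned on that clone.

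Zfp42, the zinc finger gene also called Rex1, read 2.89 and 5.18 in ES cells, 2.39 in 20D17 and between -5.88 and -3.48 in iHAC1-iPS cells. Its iHAC2-iPS levels were 0.46, 0.80, -0.36 and 2.92 and its iHAC-free levels 2.61, 2.63, 2.33 and 2.36, so that 2-N lay above the whole iHAC-free group and the other 3 clones below it. The difference was -1.53 (SE 0.72, adjusted p 0.278). Esrrb, an orphan nuclear receptor of the naive circuit, had 1.86, 1.35, 0.94 and 3.90 in the iHAC2-iPS clones against 3.49 to 3.69 in the iHAC-free lines. Tfcp2l1, a transcription factor downstream of LIF, read 1.73, 0.66, 1.298 and 4.03 against 3.06 to 3.47. In both genes 2-N was above every iHAC-free line and the other 3 clones were below every one.

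Dnmt3l, the cofactor of de novo DNA methylation, was detected in all 4 iHAC1-iPS clones, at -3.79, -3.10, 0.03 and -2.84. It stood at 3.94, 4.24, 2.78 and 6.52 in 2-B1, 2-C6, 2-E and 2-N, where the ES lines had 5.37 and 5.32 and the iHAC-free lines 5.18 to 5.52. Dppa5a, an RNA-binding protein of pluripotent cells, was within 2-fold of the lower ES level in all 4 iHAC2-iPS clones, at 8.72, 7.68, 8.05 and 9.43 against 8.96 and 8.36 in the ES lines. Of 9 pluripotency markers on the array 7 were members, and all 7 had a lower mean in iHAC2-iPS than in iHAC-free iPS cells (median -1.60), but 0 of the 9 were called by limma (3 lower at an unadjusted p under 0.05). Of 20 naive-state regulators tested 6 were members (median -1.56). The probe of 1 gene, Klf4, which is no member and is carried by the vector, was called lower, where 0.544% of all probes were. At an unadjusted p under 0.05 (limma) 7 of the 20 were lower and 0 higher, where 7.51% and 11.1% of all probes were.

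The list of germline genes was the longest of the lists used, with 50 genes. It also gave the largest group of members with a shared role, 16 of the 41 tested. Of these 41, 2 were called lower in iHAC2-iPS cells, Rhox6 and Rhox9, and 0 higher (limma, with 12 lower and 3 higher at an unadjusted p under 0.05, where 7.51% and 11.1% of all probes were). The 16 members had a median difference of -1.58, with a lower mean in 15 of 16, against a median of -0.68 over the whole list. Rbmxl2, a testis RNA-binding protein, had 2.96 and 2.92 in the ES lines, 2.44 in 20D17 and -7.68 to -7.32 in iHAC1-iPS cells, none of these last well above background. In the iHAC2-iPS clones it was at -0.64, -0.73, -6.98 and 2.30, and in the iHAC-free lines at 2.62, 2.65, 2.47 and 2.74. The 4 iHAC2-iPS clones thus covered nearly the whole span between background and the ES level, with 2-E not above background and 2-N near ES cells. The difference was -4.13 (SE 1.38, adjusted p 0.159), and -5.40 (SE 1.18, adjusted p 0.0262) without 2-N.

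Stra8, which meiotic germ cells need to enter prophase, was a member but not on the germline list. It read 0.45 and -1.16 in ES cells and -3.40, -4.94, -5.44 and 2.00 in the iHAC2-iPS clones, against 3.43, 1.02, 0.05 and 1.51 in the iHAC-free lines. The spread within both groups was wide, and the difference of -4.45 (SE 1.33) had an adjusted p of 0.127. Dazl, an RNA-binding protein of germ cells, was well above background in 2-N alone of the 4 clones, at -2.004, while the iHAC-free lines had -3.57 to -2.97. Ddx4, the Vasa helicase, was at -1.91, -2.61, -2.85 and 1.51 against 0.80 to 1.15. Each of these 3 genes had 2-N inside or above the iHAC-free range and the other 3 clones below it. Mael, a piRNA pathway protein, kept within 2-fold of the lower ES level in every iHAC2-iPS clone, at -1.13, -1.98, -1.64 and 0.58, where the ES lines stood at -0.08 and -1.50.

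The reproductive homeobox genes Rhox6 and Rhox9 on the X chromosome behaved otherwise, since 2-N too was low. Rhox9 read 4.55 and 2.34 in ES cells, -1.88, -1.75, -2.85 and -0.05 in the iHAC2-iPS clones, and 2.15, 2.67, 2.14 and 2.88 in the iHAC-free lines. The groups did not overlap and the difference was -4.10 (SE 0.56, adjusted p 0.00850). Rhox6 read 4.58 and 2.18 in ES cells, then -2.12, -1.003, -2.53 and 0.30 against 1.74, 2.18, 1.79 and 2.51, a difference of -3.39 (SE 0.61, adjusted p 0.0270). With Gm9 and Rhox13 they lay within chrX:34749380-35476295 (mm9), where the median difference of the 4 members was -2.37. Rhox13 did not share the low level in 2-N, which lay 4.10 above F-N7 there. Its difference was -1.35 (SE 1.19, adjusted p 0.580), with 1 iHAC2-iPS array well above background. Rhox5, a further gene of this family, was at 2.16, 3.67, 1.05 and 4.58 against 5.70 to 6.62, with an adjusted p of 0.108.

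Oocyte and maternal-effect genes contributed 5 members of the 15 tested, Khdc3, Ooep, Dppa5a, Nlrp4f and Zp3. All 5 had a lower mean in iHAC2-iPS cells (median -2.21) and none was called. Nlrp14, no member, was the 1 gene of the list called lower by limma, where 0.544% of all probes were. At an unadjusted p under 0.05 (limma) 8 of the 15 were lower and 0 higher, where 7.51% and 11.1% of all probes were. Khdc3 (Filia) belongs to the subcortical maternal complex. It had 3.42 and 1.65 in ES cells and 3.75 in 20D17, and -5.32, -4.52, -7.30 and 0.25 in the iHAC2-iPS clones, of which 2 were well above background. Its iHAC-free levels were 1.42, 1.45, 0.46 and 2.14, so that the groups did not overlap, and the difference of -5.59 (SE 1.21) had an adjusted p of 0.0505. Ooep, a partner of Khdc3 in that complex, had 0.88, -0.35, -0.05 and 3.48 against 3.01 to 3.35, with 2-N above the iHAC-free lines.

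**Figure D4:**
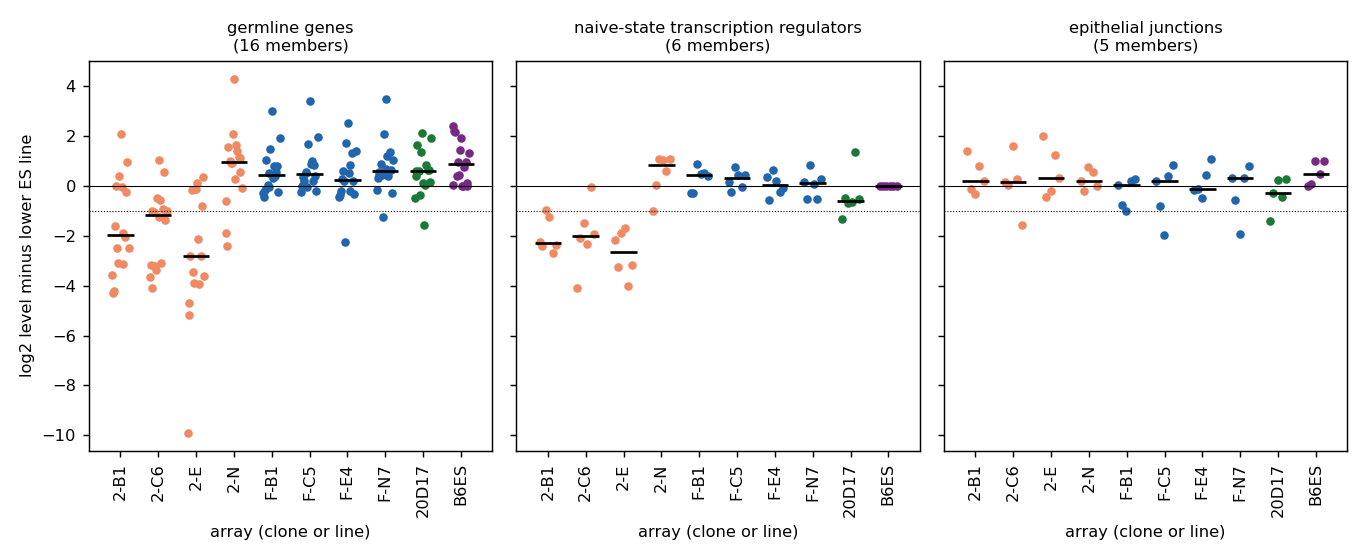
Level of the members on 3 gene lists (16 germline genes, 6 naive-state regulators, 5 epithelial junction genes), as log2 relative to the lower ES level, by line, with bars at the medians. The medians of the germline genes and of the naive-state regulators are below the ES level in 2-B1, 2-C6 and 2-E and above it in 2-N, and 7 of the 16 germline members are more than 2-fold below it in at least 3 clones. The epithelial medians are near the ES level in all 4.

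Other genes of high score, of which Syce1 and Pramel13 are on the germline list, split in the same 2 ways. Triml1, a tripartite motif protein of the early embryo, read 0.98 and 0.90 in ES cells and -3.03, -2.69, -4.71 and 1.13 in the iHAC2-iPS clones against 0.59 to 1.11 in the iHAC-free lines (difference -3.19, SE 0.88, adjusted p 0.103). Syce1, of the synaptonemal complex, read 0.96 and -1.18, then -2.81, -2.21, -3.99 and 0.35 against -0.99 to -0.16 (adjusted p 0.310). In both, 2-N was above every iHAC-free line and the other 3 clones below every one. In contrast, the transcript 2410003L11Rik, at 0.76 and 0.98 in ES cells, had 0.13, -0.42, 0.17 and 0.57 against -0.12 to 0.69, and 1700030C10Rik, at 1.603 and 1.12, had 2.26, 1.71, 0.59 and 1.49 against 2.06 to 2.38. Pramel13, of the PRAME family, had 1.91, 0.89, 1.77 and 2.95 against 1.98 to 2.83, with 2.33 and 1.94 in ES cells. The clones and the iHAC-free lines overlapped in these 3 genes.

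Epithelial genes were not low as a group. Of 28 genes tested 0 were called by limma (4 higher and 0 lower at an unadjusted p under 0.05, where 11.1% and 7.51% of all probes were), and the 5 members, Rab25, Grhl2, Ovol1, Cldn7 and Cldn4, had a median difference of 0.38, with a lower mean in iHAC2-iPS cells for 1 of them. Cldn7, a tight junction claudin, read 3.88 and 3.39 in ES cells, 4.19, 3.66, 4.64 and 3.94 in the iHAC2-iPS clones and 3.57 to 3.82 in the iHAC-free lines. Grhl2, a transcription factor of epithelia, read 1.71 and 1.63, then 1.498, 1.67, 1.20 and 1.41, and 0.84 to 1.52. For both genes the iHAC2-iPS clones overlapped the iHAC-free lines or lay close to them, while iHAC1-iPS cells had ranged from -3.54 to 0.21 for Cldn7. Pkp3, a desmosome plakophilin, stood above both ES lines (1.87 and 1.11) in every iHAC2-iPS clone, at 2.71, 2.14, 2.74 and 3.33, with 1.502 to 1.87 in the iHAC-free lines. The difference of 1.00 (SE 0.69) had an adjusted p of 0.464.

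**Figure D5:**
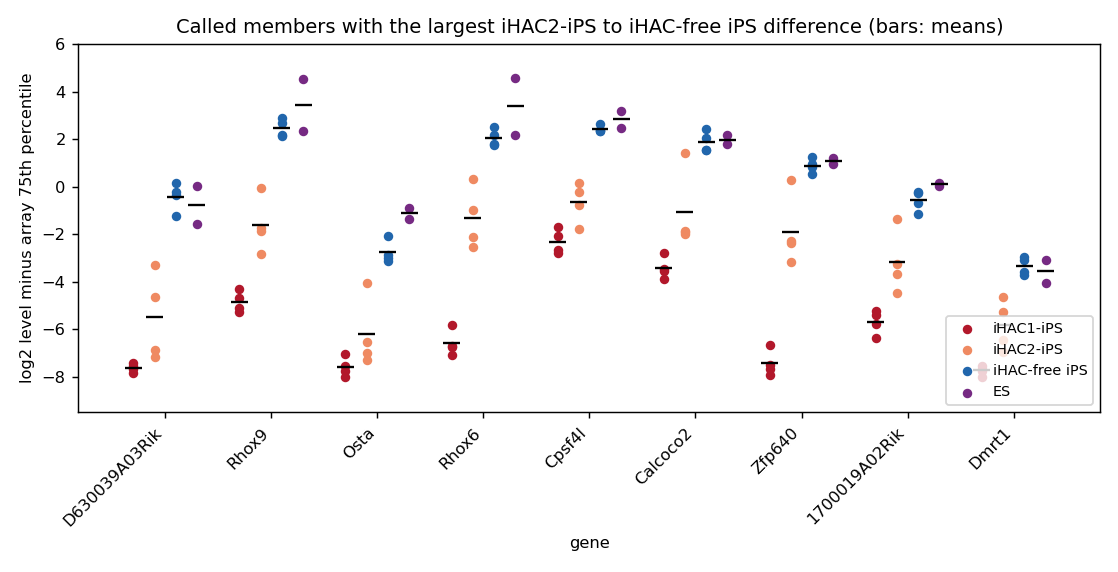
Level on each array (log2 relative to the array's 75th percentile) of 9 of the called members with the largest differences, in iHAC1-iPS, iHAC2-iPS, iHAC-free iPS and ES cells (points: arrays; bars: means). In all 9 every iHAC2-iPS clone is below every iHAC-free line, and the differences run from -5.06 for D630039A03Rik to -2.49 for Dmrt1, for both of which, and for Osta, 1 of 4 iHAC2-iPS arrays was well above background.

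The called members reached beyond the lists. D630039A03Rik, a transcript of unassigned role here, read -1.55 and 0.04 in ES cells, -4.63, -6.86, -7.17 and -3.29 in the iHAC2-iPS clones and 0.15, -0.38, -0.23 and -1.24 in the iHAC-free lines (difference -5.06, SE 0.73, adjusted p 0.0121). It was well above background on 1 of the 4 iHAC2-iPS arrays, so that the size of this difference rests mostly on spots near background. Cpsf4l, related to a pre-mRNA cleavage factor, had 3.20 and 2.46 in ES cells and -0.22, -0.77, -1.77 and 0.13 against 2.40, 2.33, 2.35 and 2.64 (difference -3.09, SE 0.37, adjusted p 0.00416). The iHAC-free lines of Cpsf4l lay close together and every iHAC2-iPS clone, 2-N included, was more than 2-fold below them, and its adjusted p was the smallest of the 20.

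Osta, a subunit of the bile acid and steroid transporter OST, was well above background in 1 of the 4 iHAC2-iPS clones. It had -6.54, -6.98, -7.29 and -4.05 against -2.07, -3.11, -2.89 and -3.01 (difference -3.45, SE 0.57, adjusted p 0.0210). Dmrt1, a transcription factor of the testis, was at -6.46, -6.97, -5.27 and -4.64 against -3.72, -3.08, -3.60 and -2.98 (adjusted p 0.0254), and again 1 of 4 iHAC2-iPS arrays was well above background. Where spots were this dim the order among the low clones carries no information. Asb14 was not well above background on any iHAC2-iPS array, and iHAC-free iPS cells exceeded them at least 1.95-fold.

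Calcoco2, an autophagy receptor, read -1.86, -1.99, -1.90 and 1.40 in the iHAC2-iPS clones against 2.43, 1.55, 2.06 and 1.52 (difference -2.97, SE 0.63, adjusted p 0.0463). In Calcoco2 3 clones were almost equal and 2-N stood far above them, close to the iHAC-free lines. Klhl13, an X-linked adaptor of a ubiquitin ligase, was at 2.19, 0.60, 1.89 and 2.45 against 3.80 to 3.92, and Manba, the lysosomal beta-mannosidase, at 2.00, 1.71, 1.69 and 2.99 against 3.34 to 3.69. Prom2, the prominin 2 membrane protein, was the 1 member called higher, at -2.15, -3.04, -1.73 and -2.34 against -3.61, -3.78, -3.21 and -3.29 (difference 1.16, SE 0.24, adjusted p 0.0433).

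Zinc finger genes formed 2 neighbourhoods. Within chr4:145040503-147128667 (mm9) lay 8 members, among them Zfp980, Zfp987 and Zfp985, with a median difference of -1.58. Zfp459 read -1.02 and -1.33 in ES cells and -2.37, -3.58, -3.09 and -1.22 in the iHAC2-iPS clones against -0.84, -1.48, -1.30 and -1.31, a difference of -1.33 (SE 0.39, adjusted p 0.123) with 2-N inside the iHAC-free range. On chromosome 13, Zfp640, Zfp459 and the transcript ENSMUST00000059329 lay within chr13:66328431-67506921, with a median of -2.11. Zfp640 read 1.20 and 0.94 in ES cells and -2.36, -2.30, -3.19 and 0.28 in the iHAC2-iPS clones against 0.54, 0.93, 0.81 and 1.23 (difference -2.77, SE 0.58, adjusted p 0.0444). The probes of Zfp980, Zfp987, Zfp985, NAP111262-1 and NAP101960-1 share runs of at least 20 bases, as do those of 4 further members including Zfp982, so that these 9 may read each other's transcripts and their separate values are uncertain. Counted once for each such group, 16 members were called lower instead of 20. On chromosome X were 9 of the 149 members with a probe position (6.04%, against 3.49% of ES genes), and on chromosome 4 there were 16 (10.7%, against 6.35%). The 16 include the 8 of the neighbourhood above, and members with shared probes were not counted once here.

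Some members stayed below ES cells where most returned. In iHAC-free iPS cells the mean of 10 members was more than 2-fold below the lower ES line. Hus1b, related to a DNA damage checkpoint clamp, was well above background on 1 of the 4 iHAC-free arrays, so that its levels there of -4.93, -7.03, -7.24 and -6.36 are mostly bounds, against -4.12 and -3.05 in ES cells. Ccnb1ip1 (Hei10), a ligase of meiotic crossovers, read -3.09, -3.60, -3.73 and -3.19 in the iHAC-free lines, -1.85 and 1.62 in the 2 ES lines and 2.11 in 20D17. Its ES lines thus differed from each other by more than the iHAC-free lines from the lower of them. Calml4, a calmodulin-like gene, had -2.96, -1.73, -1.96 and -1.91 against 2.02 and -0.30. Krt17, a keratin, had 1.82, 1.44, 1.44 and 1.18 against 2.90 and 3.09, and Osta was also among the 5 lowest.

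In 20D17 the lowest member was Ubd, a ubiquitin-like modifier (FAT10). It was not well above background there, at -6.95, and ES cells (0.60 and 0.91) exceeded it at least 97.6-fold. In contrast, the iHAC-free lines had 1.40, 2.21, 1.43 and 1.64 and the iHAC2-iPS clones -0.76, -2.03, -2.66 and -0.12. AK086352 was the other member not well above background in 20D17, with ES cells at least 3.43-fold higher. Krt17 (0.81), Slc23a1, an ascorbate transporter (-2.21, against -0.57 and 0.17 in ES cells), and Tdrd12, a piRNA pathway gene (2.24, against 3.79 and 4.25), followed. With 1 array of 20D17 there is no replicate check.

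The highest members of iHAC2-iPS cells were taken by their mean against the lower ES line. Cyct, the testis cytochrome c, had 1.02, -0.002, -1.18 and 3.25 in the iHAC2-iPS clones and 1.47 to 2.41 in the iHAC-free lines, against 0.88 and -1.05 in ES cells, so that 2-B1 and 2-N were above both ES lines and 2-E below both. Slc44a4, a choline transporter-like protein, had -1.78, -1.98, -0.46 and -0.55, all above the ES lines at -2.26 and -2.95. Mfsd6l and AK160323 were the others of the 5 highest with Pkp3, and none of the 5 passed the limma call against the iHAC-free lines.

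Of the reprogramming factors, the Pou5f1 and Myc probes were called higher and the Klf4 probe lower in iHAC2-iPS than in iHAC-free iPS cells, while Sox2 and Trp53, the target of the shRNA, did not pass the test. The Pou5f1 (Oct4) probe read 6.32 to 6.67 in iHAC1-iPS cells, 4.47, 6.41, 4.95 and 3.89 in 2-B1, 2-C6, 2-E and 2-N, and 2.43 to 2.78 in iHAC-free lines (adjusted p 0.0220). In B6ES and TT2 the probes read 3.56 and 4.00 for Pou5f1, 1.54 and 1.42 for Myc, 3.74 and 3.36 for Sox2, and 5.05 and 5.76 for Klf4. The Myc probe read 5.80 to 6.58, then 3.67, 5.60, 3.52 and 3.93, and -0.37 to 0.27 (adjusted p 0.00135). The Sox2 probe read 2.02, 1.58, 0.41 and 3.63 in the iHAC2-iPS clones against 3.43 to 3.67, and Klf4 3.16, 2.32, 2.15 and 4.66 against 5.40 to 5.97 (adjusted p 0.135 and 0.0254). For Sox2 and Klf4, as for most members, 2-N stood above the other 3 clones. Trp53 read 0.55, 1.38, 0.67 and 1.03 in the iHAC2-iPS clones and 0.87 to 1.86 in the iHAC-free lines, a difference of -0.53 (SE 0.24, adjusted p 0.267), and the 2 groups overlapped.

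Markers of other cells and signal over background also differed between the arrays compared. The summed level of 12 fibroblast markers, 11 or 12 of which were well above background, was 8.26, 7.26, 7.56 and 6.65 (log2) in 2-B1, 2-C6, 2-E and 2-N, and between 7.39 and 8.31 in the iHAC-free lines. Feeder MEFs were in the cultures, and in bulk RNA fewer pluripotent cells and less RNA per cell cannot be told apart. The 7 pluripotent cell markers summed to 8.28 to 9.56 in iHAC2-iPS cells and 8.87 to 9.17 in iHAC-free lines, with all 7 well above background in both. These are sums of linear levels, so the brightest gene, the member Dppa5a, weighs most (9.43 of 9.56 in 2-N, both log2). Pou5f1 and Sox2, which the vector also carries, are in the sum (Pou5f1 at 6.41 in 2-C6). It is therefore no measure of the share of pluripotent cells. The 6 trophectoderm markers summed to 1.48 to 2.55 in iHAC2-iPS cells, where 4 were well above background on each array, and 3.15 to 3.60 in the iHAC-free lines, where 3 to 6 were. These groups did not overlap, and Gata3 and Tfap2c were called lower and Elf5 higher. The 6 primitive endoderm markers summed to -0.81 to 0.41 and 0.17 to 2.60, with 3 or 4 and 5 well above background, and the 5 neural markers to 2.00 to 3.51 and 2.56 to 3.49. Spots well above background made up 54.2% to 59.9% on the iHAC2-iPS arrays and 59.4% to 63.0% on the iHAC-free arrays. The part of these differences in the members' values was not tested.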

How the data were processed

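Total RNA of 16 samples was labelled with Cy3 and each hybridized by the authors to 1 Agilent whole mouse genome array. The deposited scanner files hold linear spot intensity values, extracted by the authors with Agilent Feature Extraction 10.7.1.1 (first scan session) or 10.7.3.1 (second), with local background subtracted in the processed signal. The deposited value table holds log2 values normalized by the authors in GeneSpring GX 11 and centred for each probe. Its settings are not given in the sources used here. The median of its columns lay between -0.33 and 0.28, and it was used as an alternative (slopes on the scanner values 0.999 to 1.00).

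Control spots and outlier spots were left out, spots of a probe averaged, and log2 of the processed signal taken minus the array's 75th percentile. A gene was represented by its probe of highest mean level. Names came from RefSeq accessions where possible (26792 of 28026 probes), and 121 members had 1 RefSeq symbol. Probe positions are those of the files (mm9). Probes well above background on at least 1 array were tested, 31415 of 41174, in 1 limma 3.58.1 fit (R 4.3.3, lmFit and eBayes) with 6 groups, Benjamini-Hochberg adjustment, and a call at an adjusted p under 0.05 and at least 2-fold. The steps were tested on simulated data. The number of arrays limits the precision. The p-values measure a spread between clones or lines that is shared by all groups of the fit, ES lines and iHAC1-iPS clones included.

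The members and the gene lists were chosen with earlier results of these data known, and support nothing by their choice. Genes were named by a rule: the 15 of highest score, those beside the threshold, list members as examples, the 5 lowest or highest in iHAC2-iPS cells, the 5 lowest in 20D17 and in iHAC-free iPS cells, and the 10 largest calls, of which 1 is not reported here. Other genes were chosen after their values were seen. Of the lists with no member, Nodal, Lefty and FGF signalling had 1 limma call (Fgfr2, lower), erythroid genes 1 (higher), and 2-cell-stage genes and metabolism 0 (0 and 6 genes at an unadjusted p under 0.05). Of 10 DNA methylation genes 1 was a member and 0 were called (0 unadjusted). Markers called were 0 of 12 for fibroblasts (0 unadjusted), 0 of 5 for primitive endoderm and 0 of 5 for neural cells (1 lower each, unadjusted), 3 of 6 for trophectoderm and 1 of 7 for pluripotent cells (higher).

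The study's lines pair the iHAC2-iPS clones with the iHAC-free lines sorted from them. Deviations from the group means correlated between -0.219 and 0.080 within these pairs and between -0.105 and 0.216 otherwise (31387 probes).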

Additional observations from a re-analysis of the deposited data

Results flagged for a closer look

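In 98 groups of 4 samples checked for the named genes, 3 values stood apart from the rest of their group, with a gap above Dixon's critical value for the share of the group's range. Chance alone gives about 1 in 20. In iHAC2-iPS cells the clone 2-N was the high sample for Galnt6 (1.72, group median -1.45) and Calcoco2 (1.40, median -1.88). In iHAC-free iPS cells F-C5 was high for Ooep (3.35, median 3.03).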

How the results depend on the processing

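The count of members called lower in iHAC2-iPS than in iHAC-free iPS cells (20) depended on the fit. It was 44 with normexp background correction, 2 when the other groups were left out of the fit, and 13 with slide as a block. Within slide 3 it was 4 and within slide 4 it was 0 (limma, with 78 and 26 lower there at an unadjusted p under 0.05). With 1 replicate left out it was between 3 and 70, where 0.0891% to 1.91% of all probes were called lower. For the other settings the share over all probes is not given. The cause of these changes was not tested, though fits within a slide or without a replicate use fewer arrays. With the clone of origin as a replicate block, 16 were called lower and 1 higher, and this pairing changed no count by more than 1.5 times. The single call of a higher member (Prom2) was 0 with members chosen on normexp values, with no filter on dim probes, with slide as a block and within slide 3 or slide 4, and 0 to 1 with 1 replicate left out (limma, with 2 to 11 members higher at an unadjusted p under 0.05 across settings). With 100 members in place of 150, 27 were within 2-fold of the lower ES line in every iHAC2-iPS clone and 87 in 20D17. Small differences turned within slide 4 for Pramel13 (-0.56 to 0.030) and Krt17 (-0.44 to 0.047), within slide 3 for Dnd1 (0.39 to -0.25), and for Hus1b (0.13) to -0.26 with quantile normalization and below 0 without 2-N, F-C5 or F-E4 (between -0.34 and 0.62 with 1 replicate left out). Members chosen on normexp values shared 97 of the 150. Quantile normalization, the deposited value table, outlier spots kept, a strict filter and 1 probe per gene gave 18 to 22 members called lower. Among the values of named genes 741 kept their direction and side of the threshold, 177 lost the call, 23 gained it and 7 changed direction. Signal over background limits the order of levels near the floor.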
